A study of Rattus norvegicus with 4 samples.

Results

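The let-7 family is a set of microRNAs (miRNAs) that share their seed, the bases at positions 2 to 8 that pair with target messages. It was followed here in aortic vascular smooth muscle cells of Sprague-Dawley rats, grown in M199 with 10% FBS. All cells had gone 48 h without serum. There was 1 small RNA library for each of 4 groups: untreated control cells, and cells given 100 nM angiotensin II (Ang II), a hormone that raises blood pressure, for 1 h, 3 h and 24 h. With 1 library per group there was no replicate check, no test between conditions was possible, and every interval is an exact 95% interval for counting error only. The control carries no time in the labels, so the effect of Ang II and that of culture time cannot be told apart.

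The members were let-7a-5p to let-7g-5p, let-7i-5p and miR-98-5p, 9 miRNAs from the 5p arm of their hairpins, and let-7d-3p, from the opposite arm of the let-7d hairpin. A sequenced tag was given to a member when its first 18 nt were those of the mature miRNA. Where members share these 18 nt, the tag went to the one whose start it matched furthest, and ties were split equally. The 10 members are among 691 distinct mature rat sequences in the RefSeq table, of which 406 had reads, and they took 6689 of 2397853 distinct tags.

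In mammals, let-7 miRNAs are abundant in differentiated cells and lower the output of growth-promoting messages, among them those of the Ras genes and of Hmga2. Several hairpins produce them, and the RNA-binding protein Lin28 blocks the processing of these hairpins. Members differ by a few bases outside the seed, so a library tells them apart by single positions, while a message that pairs with the seed alone does not.

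The mature sequences are shown because the whole assignment rests on their single-base differences. They are RefSeq's (build GRCr8), read 5′ to 3′, with the seed in capitals.
let-7a-5p: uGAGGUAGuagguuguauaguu
let-7b-5p: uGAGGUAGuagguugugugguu
let-7c-5p: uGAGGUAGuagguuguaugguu
let-7d-5p: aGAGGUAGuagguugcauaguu
let-7e-5p: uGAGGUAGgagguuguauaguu
let-7f-5p: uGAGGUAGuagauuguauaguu
let-7g-5p: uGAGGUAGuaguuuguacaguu
let-7i-5p: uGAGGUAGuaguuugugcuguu
miR-98-5p: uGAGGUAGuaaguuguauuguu
let-7d-3p: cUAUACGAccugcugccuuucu
All 9 members of the 5p arm carry the seed GAGGUAG, and let-7d-3p has UAUACGA. Counted from 1 at the 5′ end, with the base of let-7a-5p first, let-7e-5p differs from let-7a-5p by U9G, let-7f-5p by G12A and let-7c-5p by A19G. Since let-7a-5p and let-7c-5p agree over their first 18 nt, only tags that reach position 19 separate them. The number of G and C bases was 10 of 22 in let-7b-5p, 9 in let-7c-5p, let-7d-5p, let-7e-5p and let-7i-5p, 8 in let-7a-5p and let-7g-5p, and 7 in let-7f-5p and miR-98-5p.

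On build GRCr8 several mature sequences lie close to another member. On the plus strand of chromosome 17, let-7a-5p (chr17:16320145-16320166), let-7f-5p (chr17:16320508-16320529) and let-7d-5p (chr17:16322273-16322294) follow each other at 341 and 1743 bases, with let-7d-3p at chr17:16322327-16322348. On chromosome 7, let-7c-5p (chr7:118683636-118683657, plus strand) lies 386 bases before let-7b-5p (chr7:118684044-118684065, plus strand). The X chromosome holds the other copy of let-7f-5p (chrX:24460052-24460073, plus strand), 589 bases before miR-98-5p (chrX:24460663-24460684, plus strand). A further copy of let-7a-5p is at chr8:50805219-50805240 and of let-7c-5p at chr11:29688127-29688148, both on the plus strand, and let-7e-5p is at chr1:67350243-67350264 on the plus strand. The genes of let-7g-5p (chr8:115701026-115701047, plus strand) and let-7i-5p (chr7:60527935-60527956, minus strand) have no other member close by. Reads of let-7a-5p, let-7c-5p and let-7f-5p are sums over 2 genomic copies each.

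The libraries held 13119417 to 14534892 reads that name a sequence, in tags of 16 to 42 nt, and 68.4% to 74.4% of the reads matched a mature miRNA. Of the 4 smooth muscle markers fixed for the check, miR-143-3p was highest, at 248197 to 309959 reads per 1000000 sequence reads (RPM). MiR-145-5p had 2216 to 2463 RPM, miR-143-5p 304 to 409 RPM and miR-145-3p 198 to 240 RPM. The 4 blood markers that were analysed summed to 0.457 to 0.757 RPM, with miR-223-3p and miR-142-5p at 0, and the 2 epithelial ones to 3.54 to 6.40 RPM. Of the striated muscle markers, which summed to 98.4 to 122 RPM, miR-1-3p held nearly all reads, and the liver marker miR-122-5p stayed at or below 0.229 RPM. The endothelial markers, miR-126a-3p and miR-126a-5p, summed to 105 to 125 RPM, and the neural marker miR-9a-5p had 31.6 to 43.8 RPM, while miR-124-3p was not analysed here. The part of other cell types in the members' levels was not tested. The control library stood apart in unread bases: tags with at least 1 unread base held 0.127% to 0.155% of the reads in the Ang II libraries, against 0.352% in the control.

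Together the 9 members of the 5p arm made up 163337 RPM in control cells, 153604 RPM after 1 h of Ang II, 148858 RPM after 3 h and 131442 RPM after 24 h. That is 13.1% of all reads after 24 h, against 16.3% in the control, and the order ran downward over the 4 libraries. The ratio to the control was 0.940 after 1 h (95% interval 0.939 to 0.942), 0.911 after 3 h (0.910 to 0.913) and 0.805 after 24 h (0.803 to 0.806). These log2 ratios, -0.09, -0.13 and -0.31, were close to the medians over all miRNAs with 100 reads, -0.09, -0.05 and -0.25. The size depends on the scale, and after 1 h the direction does too. With TMM factors, which set the bulk of miRNAs level, the family's log2 ratios were 0.01 after 1 h, -0.07 after 3 h and -0.05 after 24 h. Beside this, miR-143-3p, the most read smooth muscle marker, stood at 248197 RPM in the control, 302819 after 1 h, 309959 after 3 h and 305533 after 24 h, and its part in the lower RPM of let-7 was not tested. In a bulk library, fewer cells of a type and less RNA per cell cannot be told apart.

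Let-7c-5p was the most read member in every library, with 78193 RPM in the control, 71171 after 1 h, 67345 after 3 h and 60416 after 24 h, and was the third most read miRNA in each library. Let-7a-5p, which differs from it at position 19, had 26018 RPM in the control, 25284 after 1 h, 24761 after 3 h and 21839 after 24 h. Let-7b-5p had 26654 RPM in the control and then 20442 after 1 h, 19448 after 3 h and 19528 after 24 h. In RPM the 3 Ang II libraries lay close together for let-7b-5p, all well below the control. With TMM factors its ratios to the control were 0.818 after 1 h, 0.762 after 3 h and 0.881 after 24 h. For let-7f-5p the order was another, with 25083 RPM in the control, 29170 after 1 h, 29791 after 3 h and 23339 after 24 h. So let-7a-5p, let-7b-5p and let-7f-5p lay within a narrow band in the control, and let-7f-5p stood clearly above let-7b-5p after 1 h and 3 h.

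A second tier held 4 members at a small share of that level. Let-7g-5p had 2012 RPM in the control, 2296 after 1 h, 2346 after 3 h and 1889 after 24 h, a course like that of let-7f-5p. Let-7d-5p had 2047 RPM in the control, 1772 after 1 h, 1964 after 3 h and 1675 after 24 h. For let-7d-5p the libraries of 1 h and 24 h were the low ones. Let-7e-5p had 1693 RPM in the control, 1771 after 1 h, 1527 after 3 h and 1347 after 24 h. Let-7i-5p was the lowest of the 4 with 1455 RPM in the control, 1522 after 1 h, 1486 after 3 h and 1249 after 24 h. Neighbours in this order were not always apart: the intervals of let-7d-5p and let-7g-5p overlapped in the control, as did those of let-7d-5p and let-7e-5p after 1 h.

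The rarest members were miR-98-5p, with 182 RPM in the control, 177 after 1 h, 191 after 3 h and 161 after 24 h, and let-7d-3p, with 117 RPM in the control, 85.4 after 1 h, 93.0 after 3 h and 89.6 after 24 h. The plot of levels by library shows these tiers.

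**Figure D1:**
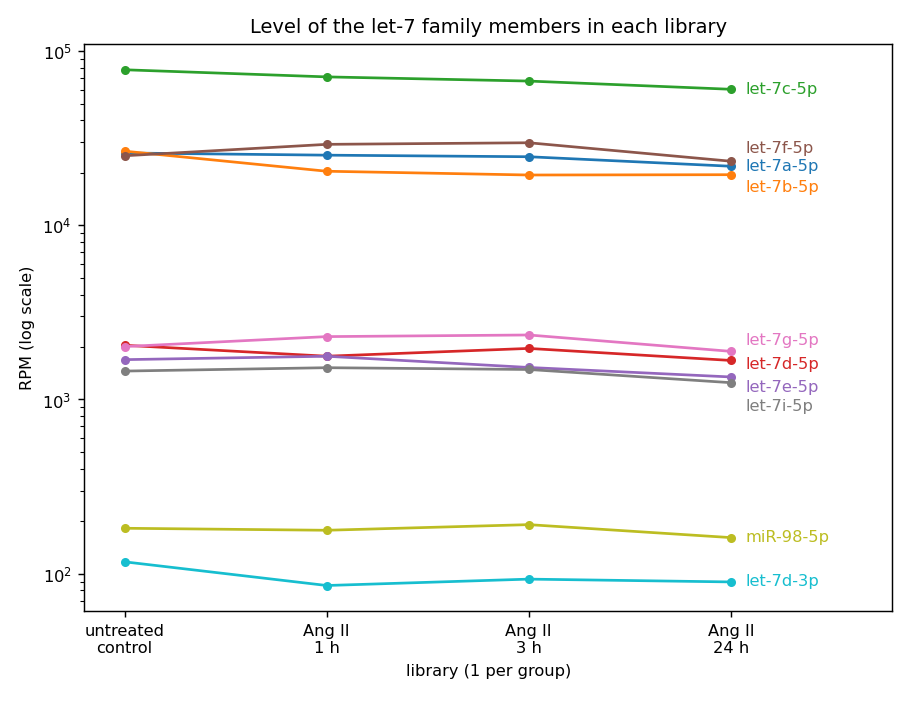
Level of each let-7 family member (reads per 1000000 sequence reads, log axis) in the 4 libraries, 1 point per library and 1 line per member. Let-7c-5p lies at the top, let-7a-5p, let-7b-5p and let-7f-5p form a band below it, and miR-98-5p and let-7d-3p lie at the bottom.

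None of the 10 members passed the size limit used for calling a difference, 1.5-fold of (RPM + 1) with at least 100 reads in the higher library. That is 0 of 10 members after 1 h, where 4.62% of 173 miRNAs passed it, 0 of 10 after 3 h, where 8.0% of 175 passed it, and 0 of 10 after 24 h, where 21.5% of 177 passed it. At 24 h the interval of the ratio lay wholly below 1 for 10 of 10 members, against 60.5% of all 177 miRNAs. Such intervals narrow with more reads. Each member had at least 1302 reads at 24 h, while the other miRNAs needed 100 in the higher library. Over all 177 the median log2 ratio was -0.25, beside -0.27 for the members. At 1 h it lay below 1 for 5 members, against 47.4% of all miRNAs, and above 1 for 4 members, against 24.9%. At 3 h it lay below 1 for 6 members, against 41.1%, and above 1 for 3 members, against 27.4%. The members' median log2 ratio was -0.04 after 1 h, -0.07 after 3 h and -0.27 after 24 h. These directions hold for RPM: with TMM factors the median was 0.05 after 1 h, -0.0038 after 3 h and -0.0050 after 24 h, and at 24 h 5 of the 10 members, let-7a-5p, let-7f-5p, let-7g-5p, let-7i-5p and miR-98-5p, lay above 0. Scaled to named miRNA reads the median was -0.13 after 1 h, -0.19 after 3 h and -0.34 after 24 h.

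Let-7b-5p had the lowest ratios among the 5p members, 0.767 after 1 h (0.763 to 0.771), 0.730 after 3 h (0.726 to 0.733) and 0.733 after 24 h (0.729 to 0.736). Let-7c-5p, its neighbour on chromosome 7, had ratios of 0.910 after 1 h, 0.861 after 3 h and 0.773 after 24 h, so the pair was further apart after 1 h and 3 h than after 24 h. Let-7f-5p was at 1.16 after 1 h (1.16 to 1.17), 1.19 after 3 h (1.18 to 1.19) and 0.930 after 24 h (0.926 to 0.935). Let-7g-5p was at 1.14 (1.12 to 1.16) after 1 h, 1.17 (1.15 to 1.18) after 3 h and 0.939 (0.924 to 0.955) after 24 h. For let-7f-5p and let-7g-5p the 1 h and 3 h ratios lay above 1 and the 24 h ratio lay below it, and with TMM factors the 24 h log2 ratio turned to 0.16 for let-7f-5p and 0.17 for let-7g-5p.

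Let-7a-5p had ratios of 0.972 after 1 h, 0.952 after 3 h and 0.839 after 24 h, and let-7d-5p had 0.866, 0.959 and 0.818 at the same times. Let-7e-5p was at 1.05 after 1 h, 0.902 after 3 h and 0.795 after 24 h, and let-7i-5p was at 1.05, 1.02 and 0.858. With TMM factors the log2 ratio turned to above 0 for let-7a-5p, at 0.05 after 1 h and 0.01 after 24 h, for let-7i-5p, at 0.04 after 24 h, and for let-7d-5p, at 0.0019 after 3 h. Scaled to named miRNA reads it turned to below 0 for let-7e-5p and let-7i-5p, both at -0.02 after 1 h, and let-7i-5p also lay at -0.09 after 3 h. The ratios of miR-98-5p could not be told from 1 by counting after 1 h (0.974, interval 0.921 to 1.03) or after 3 h (1.05, 0.994 to 1.11), and its ratio was 0.884 (0.836 to 0.935) after 24 h, which turned to a log2 ratio of 0.09 with TMM factors. Let-7d-3p was at 0.731 (0.677 to 0.789) after 1 h, 0.796 (0.740 to 0.855) after 3 h and 0.767 (0.713 to 0.825) after 24 h. Its reads per read of let-7d-5p, the other arm of the same hairpin, were 0.0571 in the control, 0.0482 after 1 h, 0.0473 after 3 h and 0.0535 after 24 h.

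**Figure D2:**
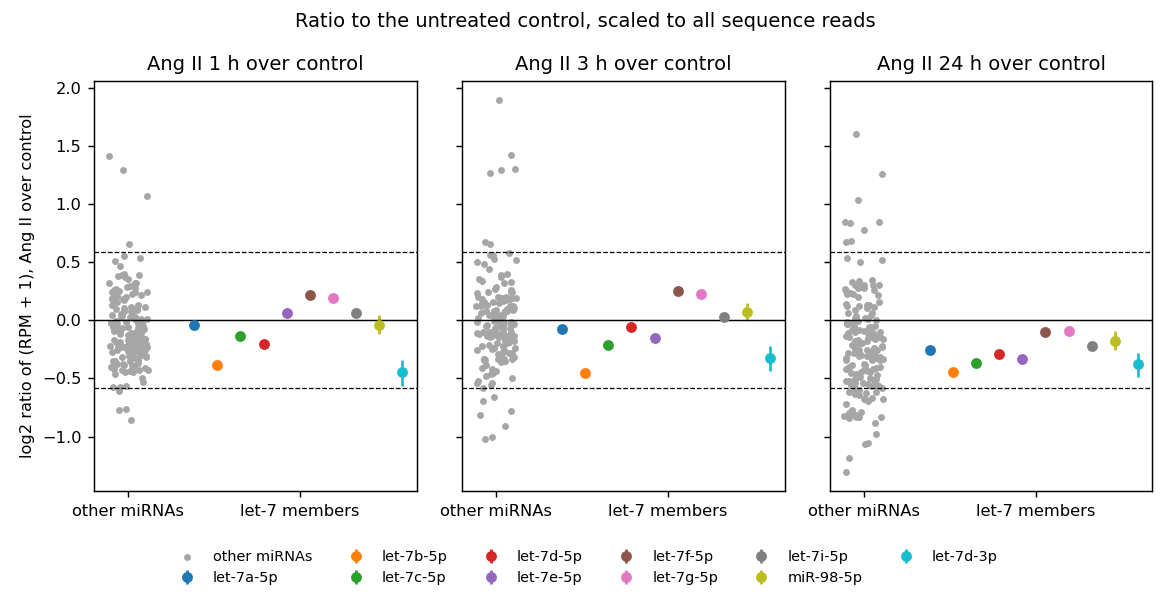
Log2 ratio of (RPM + 1), Ang II over control, for the let-7 members (coloured, with 95% counting intervals) and for the other miRNAs with 100 reads (grey), 1 panel per time. All members lie within the dashed lines at 1.5-fold, let-7f-5p and let-7g-5p lie above 0 after 1 h and 3 h, and after 24 h all 10 members lie below 0 on this RPM scale, while 5 of them turn to above 0 with TMM factors.

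Shares within the family do not depend on the scale of the library. Let-7f-5p made up 15.4% of the 5p family in the control, 18.99% after 1 h, 20.0% after 3 h and 17.8% after 24 h. Let-7b-5p made up 16.3% in the control, 13.3% after 1 h, 13.1% after 3 h and 14.9% after 24 h. Reads of let-7f-5p per read of let-7b-5p were thus 0.941 (0.937 to 0.945) in the control, 1.43 (1.42 to 1.43) after 1 h, 1.53 (1.52 to 1.54) after 3 h and 1.20 (1.19 to 1.20) after 24 h. This ratio turned over between the control and the 3 Ang II libraries and was part of the way back at 24 h. Let-7g-5p moved like let-7f-5p, with 1.23% of the family in the control, 1.49% after 1 h, 1.58% after 3 h and 1.44% after 24 h.

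Let-7c-5p held 47.9% of the family in the control, 46.3% after 1 h, 45.2% after 3 h and 46.0% after 24 h. Reads of let-7c-5p per read of let-7a-5p were 3.01 in the control, 2.81 after 1 h, 2.72 after 3 h and 2.77 after 24 h. The other shares moved by less than 1 percentage point: let-7a-5p held 15.9% to 16.6%, let-7d-5p 1.15% to 1.32%, let-7e-5p 1.02% to 1.15%, let-7i-5p 0.891% to 0.998% and miR-98-5p 0.112% to 0.128%.

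**Figure D3:**
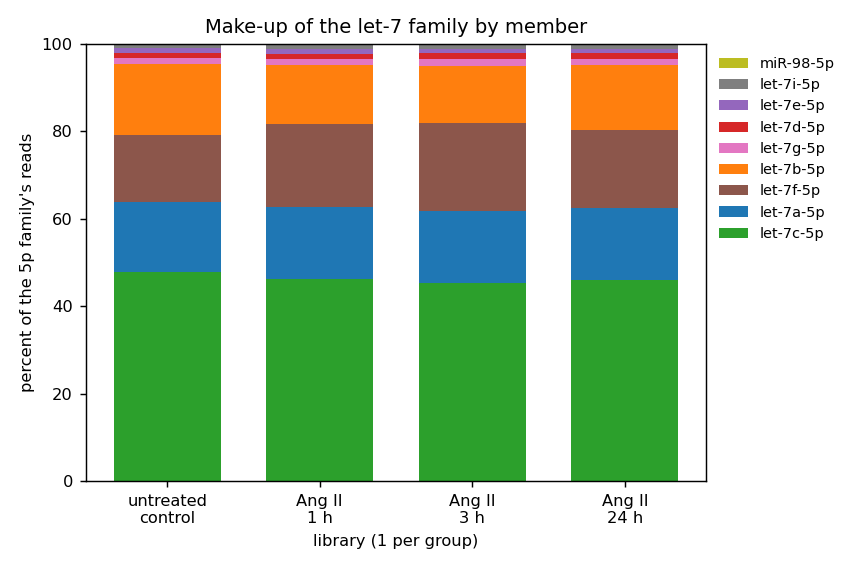
Share of each member in the reads of the 9 members of the 5p arm (percent, stacked to 100), 1 bar per library. The bar segment of let-7f-5p grows, with 15.4% in the control, 18.99% after 1 h and 20.0% after 3 h, while that of let-7b-5p shrinks, with 13.1% after 3 h against 16.3% in the control.

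Members that lie close together on a chromosome differed in their ratios. On chromosome 17, where let-7a-5p, let-7f-5p and let-7d-5p lie together, reads of let-7f-5p per read of let-7a-5p were 0.964 in the control, 1.15 after 1 h, 1.20 after 3 h and 1.07 after 24 h. Per read of let-7d-5p they were 12.3 in the control, 16.5 after 1 h, 15.2 after 3 h and 13.9 after 24 h. Both let-7a-5p and let-7f-5p have a second copy elsewhere, and which copy a read came from was not known.

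The members' ratios, already seen above, were also set beside base composition. Let-7f-5p, with 7 G and C bases, had ratios above 1 at 1 h and 3 h, miR-98-5p, also with 7, had 0.974 and 1.05, and let-7b-5p, with 10, had the lowest of the 5p members at each time. Over the 9 members of the 5p arm, Pearson's r between percent G and C and the log2 ratio to the control was -0.67 after 1 h, -0.82 after 3 h and -0.84 after 24 h. Over the 168 other miRNAs it was -0.17, -0.22 and -0.23 at the same times. Of these others, 61 had up to 45% G and C and 107 had more. Their median log2 ratios were 0.03 and -0.16 at 1 h, 0.10 and -0.11 at 3 h, and -0.15 and -0.28 at 24 h. In the comparisons that leave out the control library, r over the 9 members was -0.47 for 3 h over 1 h of Ang II and 0.76 for 24 h over 3 h. Both use the 3 h library, on opposite sides of the ratio, so their signs are not independent and their contrast decides nothing. All points share the libraries and the 3 ratios share the control, so these are descriptions, and the part of base composition in the ratios was not tested.

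Tags of a member vary at the 3′ end. Each tag was compared with the annotated mature sequence and its hairpin, and classed as ending exactly there, shorter, longer along the hairpin, extended past its last matching base by up to 3 A or 3 U that the hairpin does not hold, or otherwise different. Over the 5p family, tags with the annotated end made up 73.9% of reads in the control, 75.2% after 1 h, 74.9% after 3 h and 73.1% after 24 h. Shorter tags made up 12.1% in the control, 12.1% after 1 h, 12.3% after 3 h and 14.2% after 24 h. Tags with A added made up 5.19% in the control, 4.95% after 1 h, 4.98% after 3 h and 4.75% after 24 h. A single difference inside the sequence, which includes misread bases, was found in 2.50% to 2.59% of the Ang II reads, against 3.00% of the control reads, and its part in the other shares was not tested.

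The share of shorter tags was higher after 24 h than in the control for all 10 members. The difference ran from 0.821 points in let-7g-5p to 7.47 points in miR-98-5p, with a median of 2.32 points. The 95% intervals of both libraries were apart for 9 of 10 members, let-7d-3p being the exception, while a higher share with intervals apart was found for 37.5% of all 88 miRNAs with 1000 reads in every library. Of the 78 that are no members, 24 had it, and their median difference was 0.493 points. These intervals narrow with more reads, and the 78 were not matched to the members in depth. At 1 h the share was higher with intervals apart for 1 member, let-7b-5p, against 5.68% of the 88, and at 3 h for 3 members, let-7b-5p, let-7c-5p and let-7i-5p, against 15.9%. Against 3 h, the 24 h share was higher with intervals apart for 10 of 10 members, against 42.0% of the 88.

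Most of these shorter tags lacked the last base alone. In let-7a-5p, the 21 nt tag held 8.67% of reads in the control, 8.59% after 1 h, 8.71% after 3 h and 10.3% after 24 h. In let-7b-5p, all shorter tags made up 19.8% in the control, 21.6% after 1 h, 21.8% after 3 h and 22.8% after 24 h, so its share was already higher after 1 h. In let-7c-5p they made up 10.6% in the control, 10.7% after 1 h, 11.1% after 3 h and 12.8% after 24 h. Let-7f-5p had 10.5% in the control, 10.5% after 1 h, 10.6% after 3 h and 12.6% after 24 h.

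**Figure D4:**
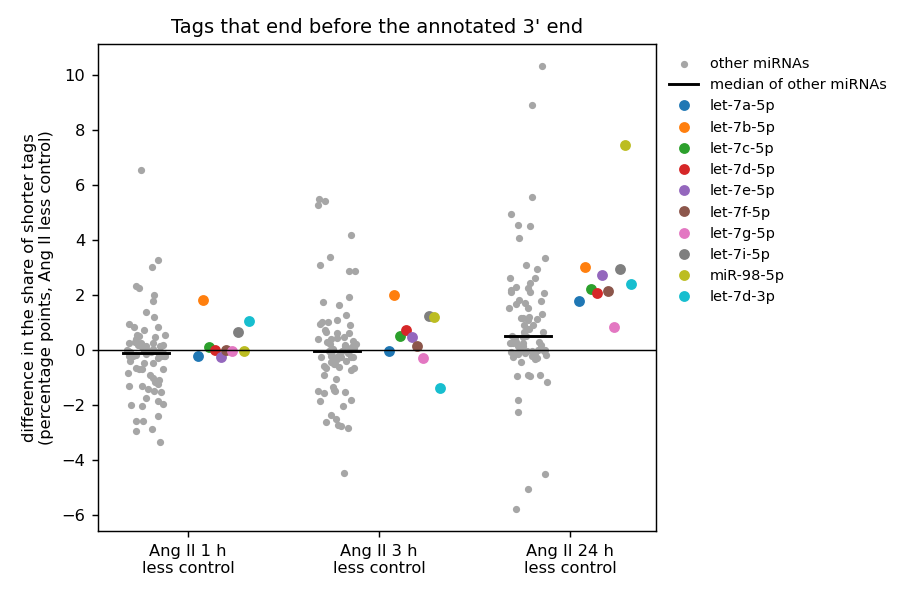
Difference in the share of tags that end before the annotated 3′ end (percentage points, Ang II less control) for the let-7 members (coloured) and 78 other miRNAs with 1000 reads in every library (grey, black bar at their median). After 1 h and 3 h members lie on both sides of 0, and after 24 h all 10 lie above 0, with miR-98-5p highest at 7.47 points.

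For 2 members the annotated sequence was not the most read tag. The 3 most read tags of let-7i-5p and of miR-98-5p are shown, in DNA letters as deposited and with the bases from position 19 in capitals, because they differ only there.
let-7i-5p, most read: tgaggtagtagtttgtgcTGTTA
let-7i-5p, next: tgaggtagtagtttgtgcTGT
let-7i-5p, then: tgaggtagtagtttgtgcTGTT
miR-98-5p, most read: tgaggtagtaagttgtatTGT
miR-98-5p, next: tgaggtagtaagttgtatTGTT
miR-98-5p, then: tgaggtagtaagttgtatTGTTA
The first tag of let-7i-5p is the mature sequence with an A that the hairpin does not hold, and took 25.4% of its reads in the control. All tags of let-7i-5p with A added made up 48.8% (48.1 to 49.4) in the control, 48.9% after 1 h, 48.3% after 3 h and 47.1% (46.3 to 47.8) after 24 h. The annotated end made up 8.83%, 9.17%, 9.84% and 9.46% in the control and after 1 h, 3 h and 24 h. The 3′ adapter of the libraries also begins with A, so a single added A and a base of the adapter left on a tag cannot be told apart. The adapter alone would not leave a pair of A, but an added A followed by the adapter's first base would read the same. The mature sequence of let-7i-5p with a pair of A held 7.66% of its reads after 24 h, against 9.08% in the control. With AU, which the adapter could leave, it held 1.09% after 24 h, against 1.01% in the control. With AUC it had 1 read after 24 h (0.00551%) and 3 reads in the control (0.0143%), too few to compare. Among the 78 other miRNAs the median share with A added was 2.55% in the control, and 1 of them lay above let-7i-5p.

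In miR-98-5p the 21 nt tag came first with 38.1% of reads in the control, 38.0% after 1 h, 39.5% after 3 h and 45.4% after 24 h. Its annotated end made up 26.1% in the control, 27.0% after 1 h, 27.1% after 3 h and 23.2% after 24 h. A was added to 15.3% of its reads in the control, 14.4% after 1 h, 13.1% after 3 h and 12.2% after 24 h, a share above all but 3 of the 78 other miRNAs in the control. These values rest on 2327 to 2746 reads per library.

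Let-7e-5p was extended along its hairpin more often than by A. The 3 most read tags show the added base, which is the next base of the hairpin.
let-7e-5p, most read: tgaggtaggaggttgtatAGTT
let-7e-5p, next: tgaggtaggaggttgtatAGT
let-7e-5p, then: tgaggtaggaggttgtatAGTTG
Tags longer along the hairpin made up 15.4% (14.9 to 15.8) of let-7e-5p reads in the control, 14.4% (13.9 to 14.8) after 1 h, 12.3% (11.9 to 12.8) after 3 h and 11.2% (10.8 to 11.7) after 24 h. The share ran downward over the 4 libraries, and the interval of each Ang II library was apart from that of the control. At 24 h, let-7e-5p alone among the members had this share lower with intervals apart, which was so for 11.4% of the 88 miRNAs. Let-7b-5p could not have it lower, since its hairpin was not used and its share was 0 in each library. Of the 78 other miRNAs, 66 had a share above 0 in the control.

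Let-7g-5p had 6.31% to 6.54% of reads longer along the hairpin in the Ang II libraries, against 6.30% in the control. All 1825 such reads in the control were the mature sequence with U. The next base of its hairpin is U, so an added U and a hairpin U could not be told apart. Tags of let-7g-5p with A added made up 7.43% (7.13 to 7.74) in the control, 6.54% after 1 h, 6.21% after 3 h and 6.05% (5.77 to 6.34) after 24 h. Let-7b-5p had A added to 10.7% of reads in the control, 10.6% after 1 h, 11.3% after 3 h and 9.99% after 24 h, and U added to 8.63%, 8.56%, 8.73% and 9.14% in the same order. Its hairpin was not used, so its added U and the next bases of its hairpin could not be told apart. At 24 h the share with A added was lower with intervals apart for 6 of 10 members, against 17.0% of the 88 miRNAs. The median difference was -0.37 points for the members and -0.07 for the 78 others, which were not matched in depth.

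**Figure D5:**
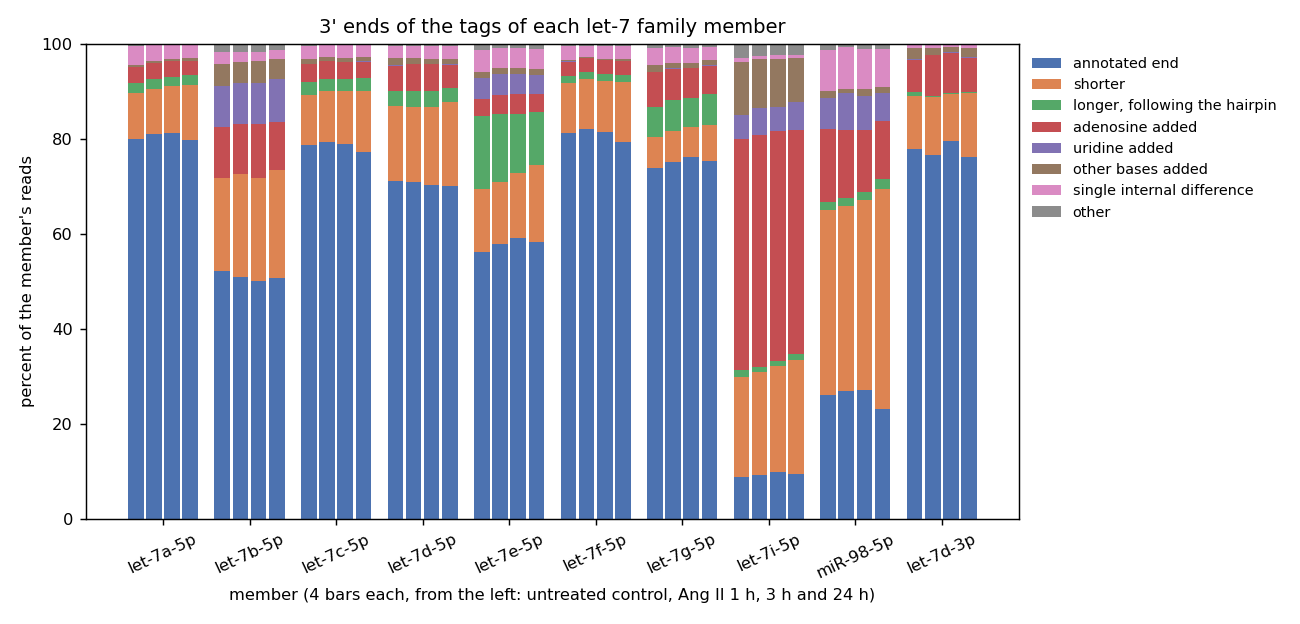
Makeup of the 3′ ends of each member (percent of its reads, stacked to 100), with 4 bars per member in the order control, 1 h, 3 h and 24 h. The annotated end (blue) is the largest class in 8 members, tags with adenosine added (red) lead in let-7i-5p, and shorter tags (orange) lead in miR-98-5p and are higher at 24 h in each member.

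Starts varied less than ends. Among tags that start within 2 nt of the annotated start, 95.7% to 99.1% of the reads of the 5p members started exactly there. Let-7b-5p, whose hairpin was not used, had no reads counted before the annotated start. Let-7g-5p had the highest share of 5p tags starting 1 nt further in, 3.16% in the control, 2.51% after 1 h, 2.58% after 3 h and 2.22% after 24 h. In let-7a-5p, let-7b-5p, let-7c-5p, let-7e-5p, let-7f-5p and let-7i-5p this share was also highest in the control and lowest after 24 h. In let-7d-5p it was highest after 1 h, and in miR-98-5p after 3 h. In let-7d-3p this share was 6.24% in the control, 6.34% after 1 h, 7.22% after 3 h and 7.06% after 24 h, and such tags carry a seed shifted by 1 base.

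Misread bases limit the rarest members, since 1 wrong base in an abundant member can make the sequence of another. Over its first 18 nt miR-98-5p differs from let-7a-5p and let-7c-5p by G11A alone. Tags with either of the remaining bases at position 11, which belong to no member, had 1628 and 847 reads in the control, beside 2622 reads of miR-98-5p. By their bases 19 to 21, 6.29% of miR-98-5p reads ended like let-7c-5p in the control, 5.80% after 1 h, 5.86% after 3 h and 5.77% after 24 h, and a further 1.98% to 2.45% like let-7a-5p. For let-7e-5p, 1.96% to 2.20% ended like let-7c-5p in the Ang II libraries, against 2.85% in the control. For let-7f-5p, whose sequence also lies 1 base from let-7a-5p, 0.120% to 0.182% ended like let-7c-5p. Let-7e-5p and let-7f-5p have the same bases 19 to 21 as let-7a-5p, so misread let-7a-5p tags could not be seen this way. In the control, tags with A or C at position 9, which belong to no member, had 3085 and 1092 reads, beside 24370 of let-7e-5p. Those with U or C at position 12 had 2775 and 1955 reads, beside 361076 of let-7f-5p. Tags that tied between let-7a-5p and let-7c-5p made up 1.58% of let-7a-5p reads after 24 h, against 2.88% in the control.

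The opposite arms of the hairpins were rare. The sequence shared by let-7a-1-3p and let-7c-2-3p had 225 reads in the control, 234 after 1 h, 300 after 3 h and 277 after 24 h, with a ratio of 1.34 (1.12 to 1.59) after 3 h and 1.22 (1.02 to 1.46) after 24 h. Let-7b-3p had 274 reads in the control, 211 after 1 h, 248 after 3 h and 196 after 24 h, and its ratio after 24 h was 0.708 (0.587 to 0.854), beside 0.733 for let-7b-5p. Let-7e-3p had 56 to 79 reads per library, let-7f-1-3p 56 to 72 and let-7i-3p 27 to 50. The ratio of let-7i-3p at 1 h was 0.593 (0.357 to 0.965), while that of let-7i-5p was 1.05. MiR-98-3p had 17 reads in the control, 14 after 1 h, 22 after 3 h and 33 after 24 h, a ratio of 1.92 (1.04 to 3.68) after 24 h. Let-7g-3p and let-7a-2-3p had 5 to 15 reads per library, and the interval of each of their ratios held 1.

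Partner miRNAs that share a locus with a member were set beside it. In the cluster of let-7e-5p on chromosome 1, miR-99b-5p had ratios of 0.820 after 1 h, 0.748 after 3 h and 0.756 after 24 h, and miR-125a-5p had 0.765, 0.727 and 0.797. Let-7e-5p itself, at 1.05, 0.902 and 0.795, lay above both after 1 h and 3 h and level with miR-125a-5p after 24 h. MiR-100-5p and miR-125b-5p, near a copy of let-7a-5p on chromosome 8, had ratios of 0.798, 0.837 and 0.822 and of 0.877, 0.872 and 0.903. MiR-125b-5p sums over its own genomic copies as well.

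The course of the family total was nearest to that of miR-103-3p. By the distance between the 3 log2 ratios to the control, it was 0.0803 away, followed by miR-191a-5p at 0.0909, miR-374-5p at 0.102, miR-152-3p at 0.118 and miR-199a-5p at 0.132. The median over 143 candidate miRNAs was 0.445. MiR-103-3p had 4223 RPM in the control, 3857 after 1 h, 4030 after 3 h and 3362 after 24 h.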

How the data were processed

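Small RNA of 17 to 52 nt was made into libraries from 0.5 µg of total RNA with 12 PCR cycles and read on an Illumina Genome Analyzer IIx, as the labels' protocols state. The deposited files hold raw read counts per distinct tag, with no header or normalization. A row that names no sequence (5.13% to 7.07% of a file's reads) was left out. Novoalign and the build rn4 appear in the submitters' processing notes, with no role. How adapters were trimmed is not stated there.

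Tags were matched to RefSeq mature rat sequences (GRCr8, used for names, sequences and positions). Counts were divided by all sequence reads (RPM); 1 RPM was added for log2 ratios. The members and lists were chosen with earlier results of these data known. The rule named all 10 members, opposite arms with 20 reads in total, cluster neighbours, the 5 miRNAs nearest to the family total and the 3 most read tags of each member. A ratio was called past 1.5-fold with 100 reads in the higher library. Groups came from the source label, 1 library each, so no test was run. Ratios have exact conditional binomial, shares Clopper-Pearson and counts Poisson intervals at 95%; PCR copies are not independent molecules. Let-7c-1-3p and miR-99a-5p were not analysed here, and let-7f-2-3p had 15 reads in all.

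The matching and the call rule were tested on simulated data, where 76 of 76 made-up tags were matched and classed. Of 40 2-fold changes, 40 were called at 1 h among 131 miRNAs, 40 at 3 h among 129 and 40 at 24 h among 130. The simulated counts were of better read miRNAs and held counting error alone, and a 2-fold change lies past the 1.5-fold limit. So they check the code and say nothing of spread between cultures. Alternatives were other scalings (named miRNA reads, median of ratios, TMM by edgeR 4.0.16 under R 4.3.3), a pseudocount of 10, read minimums, a 2-fold limit, a match of 20 nt, tied tags or tags read once left out, tags of 18 to 26 nt, the mature sequence alone, the most read tag as the end, and other comparison libraries. Chosen after seeing the data were leaving out tags that end like let-7a-5p or let-7c-5p and counting tags whose start lies 1 or 2 nt inside the annotated one. Scripts ran under Python 3.11.15 with scipy 1.17.1, pandas 2.3.3, numpy 2.4.6 and matplotlib 3.10.9.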

Additional observations from a re-analysis of the deposited data

Results flagged for a closer look

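For 4 members the log2 ratio to the control lay above 0 at 1 h and below 0 at 24 h, which is why they are listed. The difference between the times was not tested, since each time has 1 library, and both ratios share the control. Let-7e-5p had 0.06 at 1 h and -0.33 at 24 h. Let-7f-5p had 0.22 at 1 h and -0.10 at 24 h. Let-7g-5p had 0.19 at 1 h and -0.09 at 24 h. Let-7i-5p had 0.06 at 1 h and -0.22 at 24 h. Scaled to named miRNA reads, let-7e-5p and let-7i-5p both lay at -0.02 at 1 h. With TMM factors, let-7f-5p, let-7g-5p and let-7i-5p lay above 0 at 24 h, at 0.16, 0.17 and 0.04.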

How the results depend on the processing

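No member passed the fold limit in RPM or under any alternative run, so no called ratio could change sign. The family's log2 ratios at 1 h, 3 h and 24 h were -0.18, -0.25 and -0.39 scaled to named miRNA reads, 0.0052, -0.072 and -0.047 with TMM factors, and 0.013, -0.10 and -0.065 with median-of-ratios factors. These scalings shift every miRNA of a library alike, by up to 0.27 at 24 h (TMM). They were -0.079, -0.13 and -0.31 with a match of 20 nt, and -0.063, -0.11 and -0.33 with the mature sequence alone. Without tied tags they were -0.13 at 3 h and -0.31 at 24 h, and with tags that start further in added, -0.32 at 24 h. The ratio was -0.045 at 3 h over 1 h and -0.18 at 24 h over 3 h. Of 30 members' ratios, 8 changed sign with TMM factors and 6 with median-of-ratios factors. Scaled to named miRNA reads 4 did, and with the mature sequence alone 1 did. Under the other alternatives run, 0 did. Among these, the 2-fold limit, the read minimums and the pseudocount of 10 cannot change the sign of a ratio, so their result was fixed in advance. The share of annotated ends at 24 h less control, -0.79 points, was -1.21 with a match of 20 nt and -1.09 without tied tags, and the cause was not tested. The share of shorter tags, 2.11 points higher at 24 h than in the control, stayed within its counting interval under each alternative. No paired analysis was possible because each group holds 1 library. Depth limits miR-98-5p, let-7d-3p and the opposite arms most, and spread between cultures was not measured.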
